A study of Mus musculus with 24 samples.

Results

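Nrep, Dupd1, Cyp26b1 and Slc15a5 are 4 protein-coding genes of the 43346 in a count table of mouse gastrocnemius, the large calf muscle. They were selected on the measured values of these libraries, as large falls with a tumour or as levels particular to a group, outside the usual lists of muscle wasting genes. Their differences between the groups are therefore given as a description, with no test. All 4 passed the filter on low counts that left 17773 genes, and Slc15a5 passed it through the male groups, since its raw counts were 5 to 17 in the female libraries and 189 to 544 in the male libraries.

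The mice were C57BL6 of both sexes, 7 weeks old when LLC1 cells or the vehicle, phosphate-buffered saline, were injected under the skin, and the tumour cells grew for 3 weeks. LLC1 is a single mouse line of Lewis lung carcinoma, described as lung adenocarcinoma in the labels, that is used to model cancer cachexia. The 4 groups were female vehicle, female LLC1, male vehicle and male LLC1, with 6 libraries each; the labels give no engineered allele. Each library carried a number of its own in its group and was taken as 1 mouse, and errors and p-values cover the spread from one such library to another. Poly(A) RNA was sequenced to 26.2 to 47.4 M (mega-counts) per library. All libraries of a group ran on the same lane and no lane held more than 1 group, so the lanes and the groups cannot be told apart. Summed levels of the 11 fast myofibre markers were 131200 to 214949 counts per mega-count (CPM) per library, against 343 to 4384 CPM for the 7 slow myofibre markers.

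Nrep encodes P311, a small protein first described in nervous tissue, which is also found in the myofibroblasts of wounds and has been linked to the translation of transforming growth factor beta (TGF-beta). Dupd1, also called Dusp29, encodes an atypical dual-specificity phosphatase found mainly in skeletal muscle. Such enzymes remove phosphate from tyrosine and from serine or threonine, and the typical members of the family switch off MAP kinases. Cyp26b1 encodes a cytochrome P450 that oxidises all-trans retinoic acid, the ligand of the RAR receptors, and so lowers its level in the cell. Retinoic acid is made from retinol by retinol dehydrogenases and retinaldehyde dehydrogenases. Slc15a5 is a little-studied member of the SLC15 family, whose better known members carry small peptides and histidine across membranes together with protons.

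Promoters of Dupd1, Cyp26b1 and Slc15a5 are shown so that the upstream sequence of the muscle phosphatase can be set beside those of the other 2 genes. RefSeq's promoter table held 3 of the 4 genes. Each window is the 250 bases before the RefSeq start, on the minus strand of GRCm38.p6, printed 5′ to 3′. The Dupd1 window is chr14:21714577-21714826, the Cyp26b1 window is chr6:84593811-84594060 and the Slc15a5 window is chr6:138079917-138080166. Capitals mark matches to the motifs searched on both strands: the E-box CANNTG bound by myogenic factors, the TATA box TATAAA, the nuclear receptor half-site AGGTCA, and the MEF2 consensus, which also holds letters for a choice of bases. None of the capitals overlap.
Dupd1: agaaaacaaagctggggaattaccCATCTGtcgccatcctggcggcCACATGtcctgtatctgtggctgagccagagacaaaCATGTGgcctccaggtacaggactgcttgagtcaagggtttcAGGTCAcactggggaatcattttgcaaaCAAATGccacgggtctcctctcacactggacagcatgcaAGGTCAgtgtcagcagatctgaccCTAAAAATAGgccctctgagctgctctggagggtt
Cyp26b1: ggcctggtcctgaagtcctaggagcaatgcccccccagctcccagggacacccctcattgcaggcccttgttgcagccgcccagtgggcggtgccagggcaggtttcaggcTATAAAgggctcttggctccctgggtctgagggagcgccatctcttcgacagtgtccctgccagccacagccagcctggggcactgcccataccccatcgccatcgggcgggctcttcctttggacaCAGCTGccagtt
Slc15a5: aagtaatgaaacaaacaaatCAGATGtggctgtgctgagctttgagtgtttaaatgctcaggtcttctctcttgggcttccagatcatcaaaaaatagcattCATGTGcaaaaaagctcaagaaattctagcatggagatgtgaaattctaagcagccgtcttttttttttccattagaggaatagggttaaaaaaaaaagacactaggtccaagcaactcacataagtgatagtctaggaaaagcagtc

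The Dupd1 window held 1 match to the MEF2 consensus, CTAAAAATAG, at 35 to 26 bases before the start. Of 32851 RefSeq promoter windows of the same length, 2.92% held such a match. Dupd1 had 4 E-boxes, and 3.84% of windows had at least 4. It also had 2 nuclear receptor half-sites. At least 1 was held by 14.02% of windows, and the share with at least 2 was not counted. Cyp26b1 had a TATA box at 139 to 134 bases before the RefSeq start, a motif of 12.37% of windows, and 1 E-box. Its window lies partly inside the gene span of the count table, which starts further upstream. Slc15a5 had 2 E-boxes, and 31.81% of windows had at least 2. Neither the glucocorticoid response element, in 0.01% of windows, nor the DR5 retinoic acid response element, in 0.09%, was spelled in any of the 3. These are letter matches, and binding was not measured.

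Nrep was lower in LLC1 mice of both sexes. The gene (ENSMUSG00000042834) spans 33437019 to 33464029 of chromosome 18 in mm10, on the minus strand, with 2513 bases of exon. In females its median was 76.4 CPM with vehicle, from 73.6 to 102 CPM, and 21.4 CPM with LLC1, from 17.3 to 38.1 CPM. In males it was 98.2 CPM with vehicle, from 92.6 to 121 CPM, and 17.2 CPM with LLC1, from 4.46 to 41.1 CPM. Every LLC1 mouse lay below every vehicle mouse of its sex. The vehicle mice lay close together, with coefficients of variation of 13.8% in females and 10.6% in males, and the LLC1 mice were spread more widely, at 32.1% and 69.4%.

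The means ± SD of Nrep were 81.0 ± 11.1 CPM in female vehicle and 23.5 ± 7.56 CPM in female LLC1 mice (n = 6 each). In males they were 103 ± 10.9 and 22.1 ± 15.4 CPM (n = 6 each). The log2 fold change was -1.78 ± 0.34 (SE) in females, 3.44-fold lower, which ranked 14 of the 17773 genes from the lowest. In males it was -2.22 ± 0.34, 4.65-fold lower and rank 25. The male value minus the female value was -0.43 ± 0.46, less than its own error. The female minus male log2 difference was -0.34 ± 0.33 in vehicle mice, where 5 of 6 females lay below the lowest male, and 0.09 ± 0.33 in LLC1 mice, where the ranges overlapped. Of all genes tested, 2.50% had every female LLC1 mouse below every female vehicle mouse, and 5.34% in males; the choice of the members used these contrasts, so nothing is read from that background.

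Dupd1, the muscle phosphatase gene, was lower in both sexes by a similar amount. The gene (ENSMUSG00000063821) spans 21676582 to 21714576 of chromosome 14, minus strand, with 1093 bases of exon. The median in females was 15.9 CPM with vehicle, from 8.65 to 22.2 CPM, and 2.99 CPM with LLC1, from 1.85 to 12.8 CPM. The median in males was 16.6 CPM with vehicle, from 15 to 30.7 CPM, and 4.28 CPM with LLC1, from 2.42 to 9.94 CPM. All 6 male LLC1 mice and 5 of 6 female LLC1 mice lay below every vehicle mouse of their sex. Female LLC1 mouse 2-5, at 12.8 CPM, was above female vehicle mice 2-2, at 8.65 CPM, and 1-4, at 12.7 CPM. The same mouse had the highest Nrep level of its group.

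Mean Dupd1 was 15.6 ± 4.63 CPM in female vehicle and 4.62 ± 4.15 CPM in female LLC1 mice, and 19.1 ± 5.97 and 5.24 ± 2.72 CPM in males (SD, n = 6 each). The log2 fold change was -1.76 ± 0.40 in females, rank 18 from the lowest, and -1.88 ± 0.40 in males, rank 57. Without female LLC1 mouse 2-5 the female value was -2.39. The difference between the sexes in response was -0.12 ± 0.55 and turned to 0.51 without that mouse. Per kilobase of exon, the Dupd1 level of vehicle mice was 14.3 CPM in females and 17.5 CPM in males, against 32.2 and 40.8 CPM for Nrep.

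Cyp26b1, the retinoic acid oxidase gene, varied more between mice than with the tumour in females. The gene (ENSMUSG00000063415) spans 84571414 to 84593908 of chromosome 6, minus strand, with 4849 bases of exon. The 6 female vehicle mice had 3.88 to 28.3 CPM with a median of 9.14 CPM, and the female LLC1 mice 1.51 to 24 CPM with a median of 6.03 CPM. The male vehicle mice had 2.50 to 55.3 CPM with a median of 10.3 CPM, and the male LLC1 mice 1.72 to 5.37 CPM with a median of 3.21 CPM. The groups overlapped in both sexes, since 3 of 6 female and 2 of 6 male LLC1 mice lay below the lowest vehicle mouse. In males, 5 of 6 vehicle mice lay above the highest LLC1 mouse, the exception being male vehicle mouse 2-4 at 2.50 CPM.

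Mean Cyp26b1 was 12.1 ± 9.04 CPM in female vehicle, 8.46 ± 8.63 CPM in female LLC1, 16.6 ± 19.3 CPM in male vehicle and 3.31 ± 1.30 CPM in male LLC1 mice (SD, n = 6 each). The log2 fold change was -0.51 ± 0.67 in females, less than its error, and -2.34 ± 0.71 in males, rank 20 from the lowest. The male value rested in part on male vehicle mouse 1-3, at 55.3 CPM, without which it was -1.44. The female value ran from -1.15 without female LLC1 mouse 1-5 to -0.05 without female vehicle mouse 2-1. The male minus female difference in response was -1.83 ± 0.96, and -0.95 without male vehicle mouse 1-3. Without that mouse the female minus male difference in vehicle mice changed sign, from -0.46 ± 0.66 to 0.43.

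Slc15a5 separated the sexes, and its ranges in vehicle and LLC1 mice of a sex overlapped. The gene (ENSMUSG00000044378) spans 137983586 to 138079916 of chromosome 6, minus strand, with 3088 bases of exon. Female vehicle mice had 0.137 to 0.403 CPM and female LLC1 mice 0.180 to 0.420 CPM, with medians of 0.228 and 0.233 CPM. Male vehicle mice had 5.56 to 17.0 CPM and male LLC1 mice 5.21 to 15.4 CPM, with medians of 8.55 and 7.05 CPM. Every female was below every male, with and without the tumour. Of all genes tested, 2.49% showed every female below every male in vehicle mice and 1.87% in LLC1 mice. Slc15a5 was chosen from these values, so nothing is read from that background.

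Mean Slc15a5 was 0.254 ± 0.0942 CPM in female vehicle, 0.270 ± 0.0875 CPM in female LLC1, 9.32 ± 4.08 CPM in male vehicle and 8.13 ± 3.75 CPM in male LLC1 mice (SD, n = 6 each). The female minus male log2 difference was -5.16 ± 0.34 in vehicle mice, 35.7-fold lower, and -4.89 ± 0.34 in LLC1 mice, 29.7-fold lower. Among 17119 autosomal genes tested this ranked 2 from the lowest in vehicle and 3 in LLC1 mice, beside 1700001O22Rik on chromosome 2 and Themis3 on chromosome 17. In all, 3 autosomal genes in vehicle and 5 in LLC1 mice were at least 16-fold lower in females. The choice of Slc15a5 used these values, so its rank is a description. The log2 fold change with LLC1 was 0.06 ± 0.45 in females and -0.20 ± 0.25 in males, both less than their errors. The mean level per kilobase of Slc15a5 was 3.02 CPM in male vehicle mice. That of Cyp26b1 in the same mice was 3.43 CPM, a mean raised by male vehicle mouse 1-3 at 55.3 CPM.

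**Figure D1:**
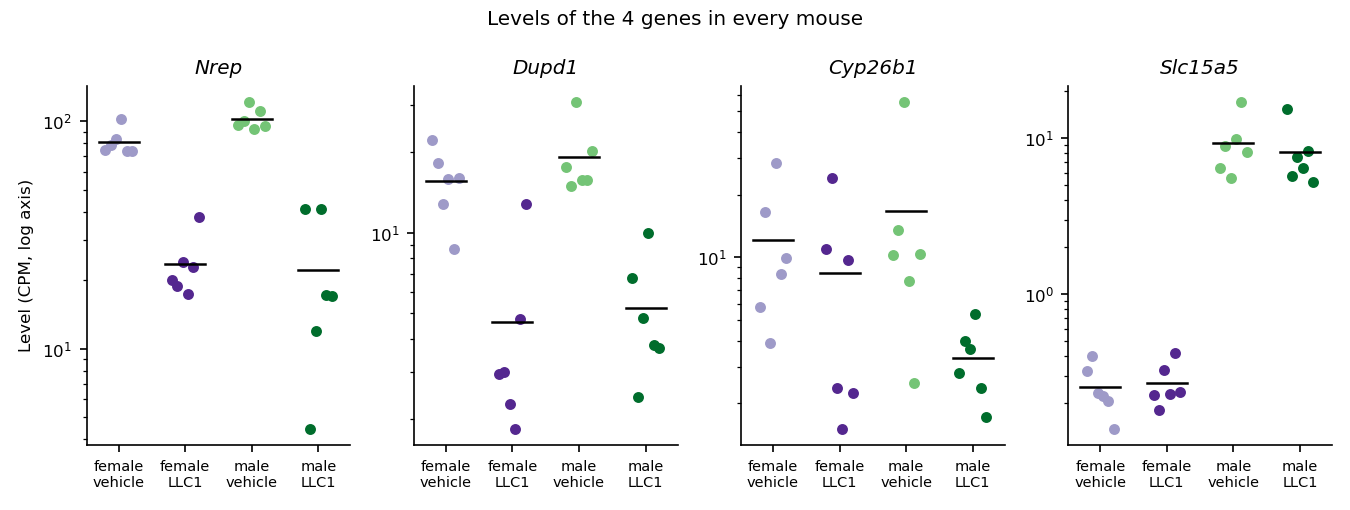
Level of Nrep, Dupd1, Cyp26b1 and Slc15a5 in CPM, on log axes, in every mouse of the 4 groups; each point is 1 mouse and each line the mean of 6 mice. Nrep lies at 73.6 CPM or more in vehicle mice and at 41.1 CPM or less in LLC1 mice, Cyp26b1 overlaps between vehicle and LLC1, and Slc15a5 stays at or under 0.420 CPM in females and at or over 5.21 CPM in males.

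In bulk muscle, fewer cells of a type and less RNA per cell cannot be told apart. Markers of fibro-adipogenic progenitors, the matrix-making cells of muscle, fell with LLC1 in 6 of 10 cases in females and 9 of 10 in males (edgeR, adjusted p under 0.05), with median log2 fold changes of -0.72 and -0.91. The 6 female calls became 3 with female LLC1 mouse 1-4, 2-3 or 2-4 or vehicle mouse 1-1 or 1-3 of that sex left out. Their summed level was 2542 to 5115 CPM in female vehicle, 1658 to 3081 CPM in female LLC1, 3182 to 5297 CPM in male vehicle and 2205 to 2745 CPM in male LLC1 mice. Over all genes, 4.95% were called lower in females and 16.8% in males. Of 9 tendon cell markers, none was called in females and 4 were lower in males, or 2 with male LLC1 mouse 1-5, 2-1 or 2-4 or vehicle mouse 1-3 or 1-4 left out. Of 11 fast myofibre markers, 2 were lower in females and 3 in males, with Pvalb and Mylpf lower in both sexes. The female count was 1 without LLC1 mouse 2-3 and 4 without 2-5, and the male count was 5 without LLC1 mouse 1-4 or 2-2. All 11 neutrophil markers were higher in both sexes, their sum moving from at most 9.33 CPM in vehicle to at least 66.1 CPM in LLC1 mice. All 7 erythroid markers were higher in both sexes too, with sums of 426 to 1082 CPM among the vehicle mice and of 1210 to 19978 CPM among those with LLC1. Of 10 smooth muscle and pericyte markers, 1 was higher in females and 5 were lower in males; no adipocyte, Schwann cell or slow myofibre marker was called in either sex. None of the marker lists had its summed level at 0. The part of these cells in the levels of Nrep and Dupd1 was not tested.

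The sex difference of Slc15a5 stood beside one in Schwann cell markers, of which 8 of 9 were called higher in females in vehicle mice and 9 of 9 in LLC1 mice. The 8 became 4 with female vehicle mouse 1-4 or male vehicle mouse 1-2 or 1-4 left out, 3 with female vehicle mouse 2-3 or male vehicle mouse 1-1, and 2 with female vehicle mouse 2-2. Their summed level was 137 to 392 CPM in female and 85.3 to 154 CPM in male vehicle mice. Their differences ran opposite to that of Slc15a5. Over all genes 6.23% were called between the sexes in vehicle mice and 15.7% in LLC1 mice. The part of other cell types in the Slc15a5 level was not tested.

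Retinoid genes were called about as often as all genes. Of 46 tested, 4 were higher and none lower in females, 8.70% of the list against 9.92% of all genes called in either direction. In males 9 were higher and 7 lower, 34.8% of the list against 36.3% of all genes. The male total of 16 became 10 without male LLC1 mouse 2-1 or 2-4. The median log2 fold change of the list was -0.01 in females and -0.03 in males, and that of all genes tested was -0.01 and 0.01.

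Among the synthesis and storage genes, the largest changes were in Lrat, which esterifies retinol for storage, and Dhrs9, a retinol dehydrogenase. Lrat was at 0.110 ± 0.0342 CPM in female vehicle and 0.681 ± 0.385 CPM in female LLC1 mice, and rose by 2.59 ± 0.38 (log2, SE; adjusted p = 8.36e-05, edgeR). In males Lrat went from 0.0879 ± 0.0515 to 0.614 ± 0.210 CPM (log2 2.81 ± 0.41, adjusted p = 3.98e-05). Dhrs9 rose by 1.70 ± 0.44 in females (adjusted p = 0.0157) and 3.12 ± 0.53 in males (adjusted p = 0.000195). Both genes stayed under 2 CPM on average in every group and were much less abundant than Aldh1a1, a retinaldehyde dehydrogenase at 92.9 ± 24 CPM in female vehicle mice. Aldh1a1 had values of 0.14 ± 0.16 and 0.13 ± 0.16 in females and males, and did not pass. Rdh10, a retinol dehydrogenase, was at 0.01 ± 0.10 and 0.11 ± 0.10, and Dhrs3, which returns retinaldehyde to retinol, at 0.02 ± 0.12 and -0.05 ± 0.12.

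Aldh1a2, another retinaldehyde dehydrogenase, was at -0.09 ± 0.33 in females and fell by 0.95 ± 0.33 in males (adjusted p = 0.0265, edgeR), and that call was lost without male LLC1 mouse 1-5, 2-1 or 2-4 or male vehicle mouse 1-3 (adjusted p = 0.0609 to 0.0808). The other 2 enzymes of the CYP26 family, Cyp26a1 and Cyp26c1, held 108 and 64 counts over all 24 libraries and were too low to test.

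Of the receptors, Rarb fell by 1.21 ± 0.23 in males (adjusted p = 0.000403, edgeR), from 10.4 ± 2.23 to 4.49 ± 1.72 CPM, and was at -0.32 ± 0.22 in females (adjusted p = 0.382). Part of its exon sequence overlaps Top2b, so reads may be shared. Rxrg, an RXR form enriched in muscle, fell by 0.57 ± 0.20 in males (adjusted p = 0.0318), a call lost without male LLC1 mouse 2-1 or 2-4 or male vehicle mouse 1-2 or 2-5. In females Rxrg was at -0.50 ± 0.20 (adjusted p = 0.117; 0.0189 without male LLC1 mouse 1-5). In fits within a sex Rxrg passed in females (adjusted p = 0.0009) and not in males (0.108), with log2 fold changes of -0.49 and -0.57. Rara, at -0.04 ± 0.12 and 0.19 ± 0.12, and Rarg, at -0.37 ± 0.18 and -0.32 ± 0.18 in females and males, did not pass. The corepressor gene Nrip1 rose by 0.65 ± 0.14 in females (adjusted p = 0.00355) and was at 0.16 ± 0.14 in males. Tgm2, a transglutaminase gene induced by retinoic acid in many cells, rose by 0.70 ± 0.12 in females (adjusted p = 0.000594) and 0.64 ± 0.12 in males (adjusted p = 0.000419). None of the 17773 genes was called for a difference in LLC1 response between the sexes with edgeR or limma-voom, although 2190 had an unadjusted p under 0.05 with edgeR and DESeq2 called 57, so the sexes are not shown to differ for these genes.

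Phosphatase genes related to Dupd1 were called in both directions. Of 25 dual-specificity phosphatase genes tested, 2 were higher and none lower in females, and 5 were higher and 6 lower in males, 20% and 24% of the list against 19.5% and 16.8% of all genes. Their median log2 fold change was -0.02 in females and -0.12 in males. Leaving out 1 library moved the female total to between 1 (LLC1 mouse 1-4 or vehicle mouse 2-1 of that sex) and 6. With LLC1 mouse 2-5 left out, 2 were higher and 4 lower in females, and with male LLC1 mouse 1-5 left out 2 were higher and 3 lower, so the direction of the female calls rested on single libraries. It moved the male total of 11 to 7 without male LLC1 mouse 1-5 or 2-1 and to 6 without 2-4. Dusp13, the neighbouring muscle phosphatase gene, was at 0.04 ± 0.09 in females and rose by 0.30 ± 0.09 in males (adjusted p = 0.0114, edgeR). Dusp27, which is also muscle-enriched, was at -0.02 ± 0.13 in females and rose by 0.35 ± 0.13 in males (adjusted p = 0.0335), a call lost in limma-voom (adjusted p = 0.0583) and without any of 7 male libraries: LLC1 mice 1-5, 2-1 and 2-4 and vehicle mice 1-3, 1-4, 2-4 and 2-5. Dusp26 rose in both sexes, by 0.61 ± 0.13 in females (adjusted p = 0.00295) and 0.48 ± 0.13 in males (adjusted p = 0.005). Dusp14 fell by 0.81 ± 0.24 in males (adjusted p = 0.0112) and Dusp3 by 0.49 ± 0.12 (adjusted p = 0.00386), with values of -0.14 ± 0.23 and -0.08 ± 0.12 in females.

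Among 25 genes of the MAP kinases and the AMP-activated protein kinase, 1 was higher and 2 lower in females. In males 4 were higher and 3 lower, or 1 and 3 without male LLC1 mouse 1-5. These calls were 12% of the list in females and 28% in males, against 9.92% and 36.3% of all genes. The median log2 fold changes were 0.00 and -0.05. Map2k6, the kinase that activates p38, fell in both sexes. Its level was 26.8 ± 4.53 CPM in female vehicle, 11.7 ± 4.79 CPM in female LLC1, 36.1 ± 4.13 CPM in male vehicle and 12.6 ± 6.51 CPM in male LLC1 mice. The log2 fold change of Map2k6 was -1.20 ± 0.27 in females (adjusted p = 0.00664, edgeR) and -1.52 ± 0.27 in males (adjusted p = 0.000296). Mapk11, the p38 beta gene, rose by 0.86 ± 0.13 and 0.56 ± 0.13 (adjusted p = 0.000101 and 0.00195). Prkag3, the AMP-activated kinase subunit of fast muscle, fell by 1.46 ± 0.34 in males (adjusted p = 0.00259) and was at -0.75 ± 0.34 in females (adjusted p = 0.161).

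Of 16 relatives of Slc15a5, genes of the SLC15 family and of peptide and histidine handling, none was called between the sexes in vehicle mice (1, higher in females, without male vehicle mouse 1-3). In LLC1 mice 4 were called, Slc15a4, Cndp2, Dpp3 and Tpp2, all lower in females, with log2 differences of -1.23 to -0.35. That was 25% of the list, against 15.7% of all genes in LLC1 mice, while 6.23% of all genes were called in vehicle mice. With LLC1, 2 were higher in females, and 4 were higher and 1 lower in males, and the median log2 fold change was 0.03 and 0.02. These calls were 12.5% of the list in females and 31.2% in males, against 9.92% and 36.3% of all genes. Slc15a4, the lysosomal histidine and peptide carrier of immune cells, rose by 1.47 ± 0.18 in males (adjusted p = 4.32e-06, edgeR), from 15.3 ± 1.63 to 42.4 ± 16.5 CPM. In females Slc15a4 rose by 0.62 ± 0.18 (adjusted p = 0.0279), from 11.7 ± 1.09 to 18 ± 2.50 CPM, and this call was lost when female LLC1 mouse 2-3 or 2-4, or vehicle mouse 2-1 of the same sex, was left out, which left 1 gene called in females. Hdc, which makes histamine from histidine, rose by 2.63 ± 0.24 in females (adjusted p = 9.44e-08) and 2.99 ± 0.25 in males (adjusted p = 1.42e-08), to 4.10 ± 1.63 and 4.67 ± 1.14 CPM. Carns1, the carnosine synthase gene of muscle, fell by 0.79 ± 0.20 in males (adjusted p = 0.00485) and was at -0.58 ± 0.20 in females. Slc15a2 and Slc15a3 did not pass in either sex.

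Genes of the TGF-beta pathway, to which P311 has been linked, were called in both directions. Of 35 tested, 1 was higher and 4 lower in females, 2.86% and 11.4% of the list against 4.97% and 4.95% of all genes. In males 6 were higher and 11 lower, 17.1% and 31.4% against 19.5% and 16.8%. The median log2 fold change was -0.04 in females and -0.14 in males. The female total of 5 became 1 with LLC1 mouse 2-3 or 2-4 or vehicle mouse 2-1 of that sex left out, 2 with LLC1 mouse 1-4 or 1-5 left out, 3 with vehicle mouse 2-2 or 2-3 left out, and 8, of which 4 were higher and 4 lower, with male vehicle mouse 1-3 left out. The ligand gene Tgfb2 was at -0.29 ± 0.17 in females and fell by 0.58 ± 0.18 in males (adjusted p = 0.0131, edgeR; 0.0526 in a fit of the male libraries alone). Tgfb1, at -0.01 ± 0.15 and 0.20 ± 0.15, and Tgfb3, at -0.04 ± 0.09 and -0.17 ± 0.09, did not pass. Itgb6, a subunit of an integrin that activates latent TGF-beta, fell by 1.56 ± 0.31 in males (adjusted p = 0.000837). In females Itgb6 fell by 1.04 ± 0.31 (adjusted p = 0.0352), a call lost with any 1 of 8 libraries left out: LLC1 mice 1-4, 1-5, 2-3 and 2-4 and vehicle mice 1-1, 2-1, 2-2 and 2-3.

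Of 12 TGF-beta receptor and SMAD genes tested, 4 were called higher and 1 lower in males. In females 1 was higher and none lower. The other TGF-beta genes leaned the other way. Of 13 ligand and latency genes, 2 were higher and 6 lower in males, and 0 and 2 in females. Of 11 target and myofibroblast genes, 0 were higher and 4 lower in males, and 0 and 2 in females. Over all genes, 19.5% were called higher and 16.8% lower in males, and 4.97% and 4.95% in females. In males the signal carrier Smad3 fell by 0.76 ± 0.23 (adjusted p = 0.0119, edgeR). The inhibitor Smad7 rose by 0.95 ± 0.18 in males (adjusted p = 0.000418) and did not pass in females. Smad4 was called higher in females, a call lost when single libraries were left out. The collagen gene Col3a1, a matrix target that is also a marker of fibro-adipogenic progenitors here, fell by 1.74 ± 0.40 in females (adjusted p = 0.00805) and 2.40 ± 0.41 in males (adjusted p = 0.000206). Of 17 genes known for nerve regrowth and denervated muscle, 1 was higher and 1 lower in females, a total of 0 to 3 when 1 library was left out, which was 0 with female LLC1 mouse 2-3 or vehicle mouse 2-1 left out. In males 4 were higher and 4 lower, and the median log2 fold change was -0.11 in females and -0.06 in males. The calls were 11.8% of the list in females and 47.1% in males, against 9.92% and 36.3% of all genes. Among the 4 higher in males were Runx1, which rose by 1.26 ± 0.27 (adjusted p = 0.00118), and Gadd45a, by 1.31 ± 0.30 (adjusted p = 0.00205). The 4 lower in males are not named here, so these genes do not stand for the list. Runx1 did not pass in females. There Musk was called higher and Chrne lower, and each call was lost when single libraries were left out.

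**Figure D2:**
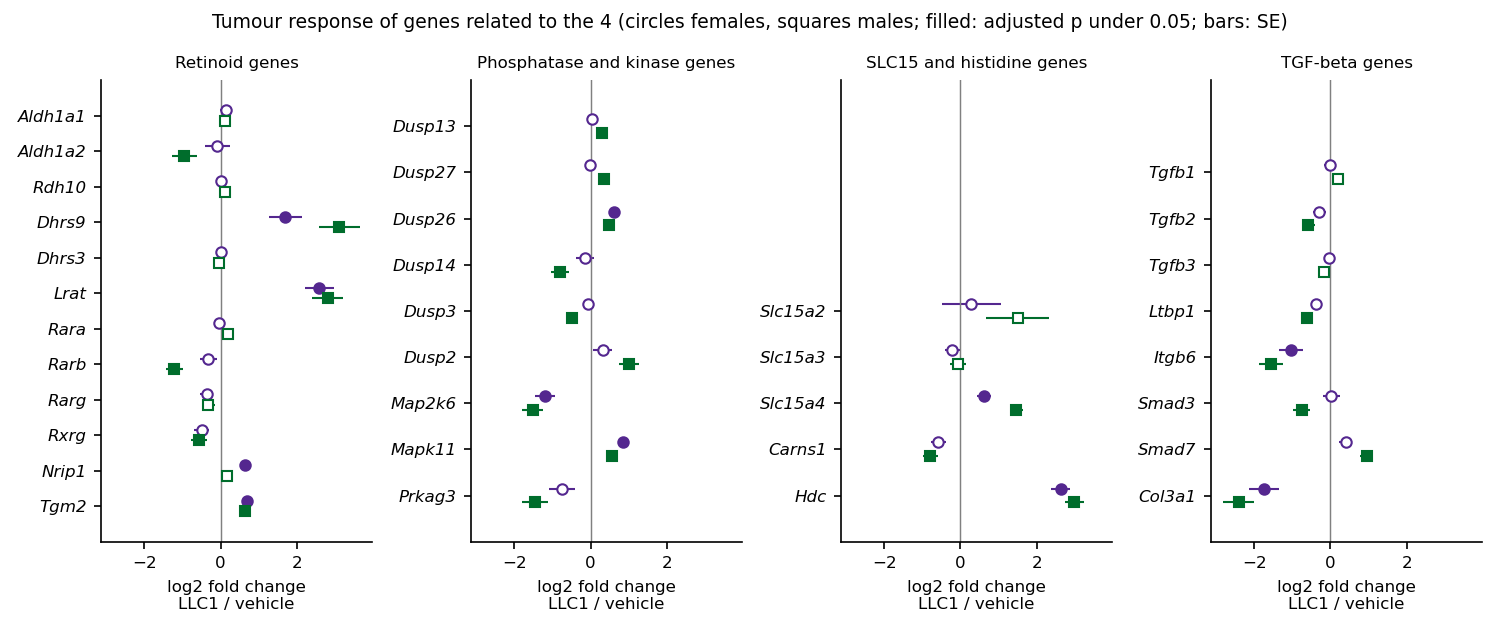
Log2 fold change of LLC1 against vehicle, with bars of 1 SE, for genes related to the 4 members, in females (circles) and males (squares); filled symbols have an adjusted p under 0.05 with edgeR. Lrat, Dhrs9 and Hdc lie far to the right in both sexes, Map2k6 and Col3a1 to the left in both, and Rarb is at -1.21 in males and -0.32 in females.

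With LLC1, the chromosome neighbours had small fold changes. Within 200 kb, 10 other genes were tested, 7 beside Dupd1, 1 beside Cyp26b1, 2 beside Slc15a5 and none beside Nrep. Their log2 fold changes with LLC1 lay between -0.39 and 0.24 in females and between -0.07 and 0.32 in males. In males Dusp13, at 18.8 kb from Dupd1, Gm15935, which overlaps Dusp13, and Samd8 were higher, by 0.30, 0.32 and 0.26. In females Dera, 146 kb from Slc15a5, fell by 0.39 ± 0.10 (adjusted p = 0.0147, edgeR), a call lost without female LLC1 mouse 1-4 or 2-3. Kat6b, 4.10 kb from Dupd1, rose by 0.24 ± 0.08 in females (adjusted p = 0.0426), a call lost with any 1 of 11 libraries left out (adjusted p = 0.05 to 0.0892): female LLC1 mice 2-1, 2-3, 2-4 and 2-5, female vehicle mice 1-3, 1-4, 2-1 and 2-2, and male vehicle mice 1-1, 1-4 and 2-4. The neighbours of Slc15a5 had female minus male log2 differences in vehicle mice of 0.03 ± 0.10 for Dera and -0.45 ± 0.23 for Mgst1, neither of which passed. In LLC1 mice both were lower in females: Dera by -0.47 ± 0.10 (adjusted p = 0.00345, edgeR) and Mgst1 by -0.78 ± 0.23 (adjusted p = 0.0244). Of all 10 neighbours 4 were called in that comparison, against 15.7% of all genes. The other 2 lie beside Dupd1 and were also lower in females: Gm15935 at -0.26 ± 0.08 (adjusted p = 0.0411, edgeR) and Vdac2 at -0.23 ± 0.08 (adjusted p = 0.0422). Dupd1 itself was at -0.17 ± 0.40. The call of Mgst1 was lost with female LLC1 mouse 2-1 or male LLC1 mouse 1-5 or 2-1 left out (adjusted p = 0.0562 to 0.0961) and stood at 0.05 with female LLC1 mouse 2-5 left out.

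Nrep and Dupd1 levels of mice of the same group were related by Pearson's r and not, after adjustment, by Spearman's rho. With the group mean subtracted from each log2 CPM, Pearson's r between Nrep and Dupd1 over 24 libraries was 0.66 (permutation within groups, adjusted p = 0.00756 over 14 relations, raw p = 0.00054), and Spearman's rho was 0.53 (adjusted p = 0.163, raw p = 0.0233). Without male LLC1 mice 1-5 and 1-4, the 2 farthest in Nrep, r was 0.68. Male LLC1 mouse 2-2 stayed in, at 1.24 above its group mean in log2 Nrep, beside 1.25 for mouse 1-4. Female LLC1 mouse 2-5 also stayed in, at 0.75 above in Nrep and 1.80 in Dupd1. The value without these mice was not calculated, so r may rest on a few mice. By group, r was 0.89 in female LLC1, 0.90 in male LLC1, 0.66 in male vehicle and 0.07 in female vehicle mice, each over 6 libraries. The groups are also the lanes, so these are the values within lanes. Cyp26b1 and Slc15a5 did not follow Nrep, with r of -0.01 (raw p = 0.952) and 0.30 (raw p = 0.26, permutation).

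Nrep was compared in the same way with Fbxo32, the gene of the wasting ligase atrogin-1. Among male LLC1 mice, mouse 1-5 had the least Nrep, 4.46 CPM, and the most Fbxo32, 3972 CPM, while mice 1-4 and 2-2 had the most Nrep, 41.1 and 41.0 CPM, and the least Fbxo32, 977 and 909 CPM. Within groups r was -0.73 (permutation, adjusted p = 0.0222, raw p = 0.00317), rho was -0.61 (adjusted p = 0.124, raw p = 0.00884) and r without male LLC1 mice 1-5 and 1-4 was -0.63. Male LLC1 mouse 2-2 was still included in that last value. By group r ran from -0.40 in female LLC1 to -0.88 in male LLC1 mice. For Trim63, the MuRF1 gene, r with Nrep was -0.67 (adjusted p = 0.116, raw p = 0.0413) and rho -0.43 (adjusted p = 0.229, raw p = 0.0981). Dupd1 and Fbxo32 had r of -0.51 (permutation, adjusted p = 0.107, raw p = 0.0306).

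By the same measure over 14204 genes with a mean of at least 1 CPM, the genes most like Nrep were Kcng4, a modulatory potassium channel subunit (r = 0.96), Wfdc1 (0.95), Pgam2, the muscle phosphoglycerate mutase (0.95), Sypl2, a triad junction protein (0.94), and Ormdl1 (0.93). Without male LLC1 mice 1-5 and 1-4 these became 0.89, 0.86, 0.88, 0.86 and 0.84, with male LLC1 mouse 2-2 still included. The lowest r was that of Dnajb2, at -0.93. None of the 5 genes stayed among the top 5 by Spearman's rho. Most like Dupd1 were Pak1 (r = 0.87), Zfp821 (0.82), Metrn (0.81), Tsen34 (0.81) and Tsc22d4 (0.81), and without female LLC1 mouse 2-5 and male LLC1 mouse 2-2 Pak1 was at 0.83.

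Cyp26b1 varied between mice most like Rarg, the gene of a retinoic acid receptor, with r of 0.78 over all 24 libraries, 0.77 in the 12 male and 0.78 in the 12 female libraries. It was 0.66 without male vehicle mouse 1-3 and female LLC1 mouse 1-5. Also among the most alike were Clip2, Tcirg1 and Tmem88, at 0.74, 0.71 and 0.70. Other retinoid genes were less alike, with r of 0.59 for Dhrs3, 0.53 for Rarb, 0.15 for Aldh1a2 and 0.29 for Tgm2. Over the retinoid list r took both signs, from -0.56 for Adh1 to 0.78 for Rarg, so Rarg does not stand for the list. Among those most like Slc15a5 were Mut (r = 0.78), Dbt (0.74), Mccc1 (0.74) and Fam210a (0.71); Mut, Dbt and Mccc1 encode mitochondrial enzymes of amino acid breakdown. For Mut r was 0.90 in the 12 male libraries and 0.45 in the 12 female libraries, where Slc15a5 held 5 to 17 counts, and 0.58 without male LLC1 mouse 1-4 and male vehicle mouse 2-4. These likenesses share library and depth, were picked as the highest of all genes, and are a description.

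**Figure D3:**
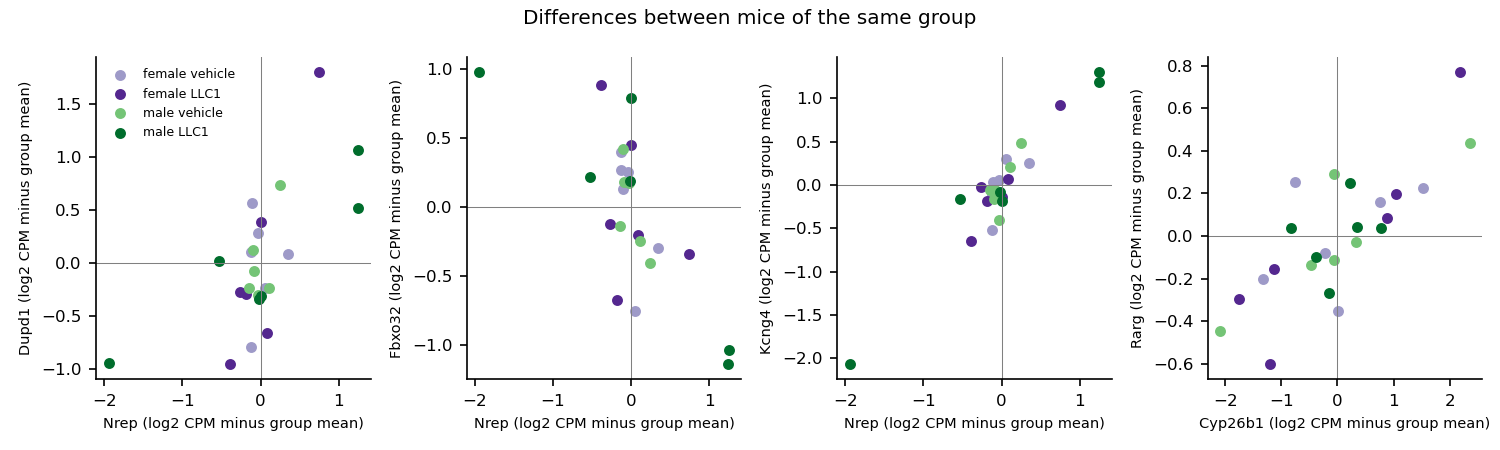
Differences between mice of the same group: each point is 1 of the 24 libraries, as log2 CPM minus its group's mean, for Nrep against Dupd1, Fbxo32 and Kcng4 and for Cyp26b1 against Rarg. The male LLC1 mouse lowest in Nrep is also the highest in Fbxo32, and the 2 male LLC1 mice highest in Nrep are the lowest in Fbxo32.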

How the data were processed

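Poly(A) RNA of gastrocnemius was sequenced from 24 libraries, 6 in each group of sex and treatment. Per the submitters' processing notes, CASAVA, STAR, featureCounts and the build mm10 were used (versions, options and the handling of shared reads: not given in the sources used here). Deposited by the authors were whole-number read counts per gene, not normalized, and the exon length of each gene. The library kit keeps no record of strand.

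Counts were fitted with edgeR 4.0.16 in R 4.3.3 (quasi-likelihood, robust, TMM factors 0.924 to 1.10, filterByExpr, 4 group means, 20 residual degrees of freedom, common biological coefficient of variation 0.174). P-values were adjusted by Benjamini-Hochberg over 17773 genes with calls made below an adjusted p of 0.05; fold changes are log2 with the SE that follows from the F statistic. CPM uses TMM-scaled library sizes, and correlations use log2 CPM with a prior count of 2. The p-values of the 14 relations come from 100000 two-sided permutations within groups. The fit was tested on simulated data.

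The members and the gene lists were chosen with earlier results of these data known. Named genes were up to 6 called genes of each list by largest change, a fixed set of retinoid, phosphatase, SLC15 and TGF-beta genes, chromosome neighbours within 200 kb, and the 5 most and least alike genes of each member; some are not reported here. Lists covered retinoid, phosphatase, kinase, SLC15, TGF-beta and regrowth genes and markers of cell types. Alternatives were RLE scaling, DESeq2 1.42.0, limma-voom (limma 3.58.1), no filter, a replicate block, fits within a sex, a prior count of 0.5, Spearman's rho, and each library left out.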

Additional observations from a re-analysis of the deposited data

Results flagged for a closer look

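In 7 of the 16 combinations of gene and group, 1 mouse stood apart from the other 5 by Dixon's criterion. The criterion was applied to CPM, a scale that sets high values farther apart than log2 levels do, and not to log2 levels. The 4 genes were chosen from these values and the same mice recur, so the 7 are not set against chance. For Nrep these were female vehicle mouse 2-1, at 102.4 CPM, and female LLC1 mouse 2-5, at 38.09 CPM, each the highest of its group. For Dupd1 they were female LLC1 mouse 2-5, at 12.83 CPM, and male vehicle mouse 1-3, at 30.7 CPM. Male vehicle mouse 1-3 was also far above its group in Cyp26b1, at 55.29 CPM. For Slc15a5, male vehicle mouse 2-4, at 16.99 CPM, and male LLC1 mouse 1-4, at 15.43 CPM, were the highest. All 7 were high values, and 2 mice accounted for 4 of them.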

How the results depend on the processing

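Of 607 recalculated log2 differences of the members, none moved by as much as 1 SD of the log2 CPM within groups, a wide tolerance, and 9 moved by more than the SE of the difference. Among these 9, Slc15a5 in males was at -0.48 without male LLC1 mouse 1-4 and 0.06 without male vehicle mouse 2-4 (-0.20 with all), Nrep in males was at -2.59 with limma-voom (-2.22), and 5 others came from female LLC1 mouse 2-5 or male vehicle mouse 1-3; Nrep between the sexes in LLC1 mice was at 0.46 with the full block (0.09). The highest likeness of Nrep was 0.8478 by Spearman's rho against 0.9555 by Pearson's r. Title numbers were not taken to pair the mice. The correlation of deviations between 20 same-numbered pairs was -0.17 to 0.30, with 3 over 0.1 and a median of 0.009 (other pairs 0.001). For 106 pairs with the same first number it was -0.20 to 0.37, with 22 over 0.1 and a median of 0.02 (other pairs -0.02). Whether the numbers mark mice handled together was not tested. With the full title number as a replicate block, calls with LLC1 numbered 480 in females (1763 without) and 3607 in males (6449 without), and calls between the sexes in vehicle mice 269 (1107 without). In females that block left 2 retinoid, 0 phosphatase, 1 SLC15, 0 TGF-beta and 0 regrowth genes called, and in males 10, 4, 3, 13 and 5; none of the 6 fibro-adipogenic markers lower in females was then called, and Col3a1 in females was at -1.12 (adjusted p = 0.182). With the first title number as the replicate block, 6 genes were called for the interaction of LLC1 with sex, against 0 in the design used and 57 with DESeq2. In females DESeq2 called 8 TGF-beta genes, 4 higher and 4 lower, and without the low-count filter 1 TGF-beta and 1 regrowth gene were called.

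Leaving out 1 library gave 920 to 2283 calls in females, the lowest without female LLC1 mouse 2-3, with 1100 without female vehicle mouse 2-1. It gave 0 to 7 calls for the interaction, 659 to 1475 between the sexes in vehicle mice and 1606 to 3724 in LLC1 mice. List totals were then 1 to 6 phosphatase, 1 to 3 SLC15, 1 to 8 TGF-beta and 0 to 3 regrowth genes in females, and 10 to 18 retinoid and 6 to 14 phosphatase genes in males. The causes were not tested. Depth limits the female level of Slc15a5, which rests on 5 to 17 counts per library.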
